A study of Equus caballus with 18 samples.

Results

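The genes described here are the 10 that the study displayed under oxidative phosphorylation, out of 25239 genes in the count table. They were taken from a figure that printed their read counts in 18 skeletal muscles, and each gene was assigned to the only identifier whose counts were equal to the printed ones in all 18 muscles. Total RNA had been sequenced from 18 muscle samples of 1 male Jeju horse, a local breed of Jeju, South Korea, with 1 library per sample and no treatment. All muscles therefore shared the same genotype, age and death, and no value can be carried over to other horses. The muscles were placed by their labelled names into 5 body regions: 4 proximal forelimb muscles (triceps brachii, biceps brachii, infraspinatus and supraspinatus), 5 proximal hindlimb samples (semitendinosus, gluteus superficialis and the vertebral, middle and caudal parts of biceps femoris), 1 back muscle (longissimus), 4 muscles of the girdle and neck (rhomboideus, omohyoideus, trapezius and pectoralis major) and 4 distal extensors (extensor digitorum communis, extensor carpi radialis, extensor digitorum longus and extensor digitorum lateralis). The 3 biceps femoris samples come from 1 muscle.

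Oxidative phosphorylation takes place in the inner mitochondrial membrane, where electrons from NADH enter complex I, pass through ubiquinone to complex III and through cytochrome c to complex IV, and reduce oxygen to water. The protons moved on the way drive the synthesis of ATP. Slow skeletal muscle fibres, which contain the myosin heavy chain of MYH7, are known to rely on this pathway, whereas fast fibres with the myosin heavy chain of MYH1 are known to rely more on glycolysis.

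Of the 10 genes, 5 encode subunits of complex I. NDUFV1 (ENSECAG00000021477) encodes the flavoprotein subunit at which NADH is oxidised, and NDUFS7 (ENSECAG00000000402) and NDUFS8 (ENSECAG00000010175) encode iron-sulphur subunits that pass electrons on towards ubiquinone. NDUFA8 (ENSECAG00000023040) is an accessory subunit, and MT-ND4L (ENSECAG00000027691) is a subunit of the membrane arm and the only member encoded by mitochondrial DNA. UQCR11 (ENSECAG00000022524) is a small subunit of complex III. Complex IV, cytochrome c oxidase, is represented by COX4I1 (ENSECAG00000011722), COX5A (ENSECAG00000000160) and COX7A1 (ENSECAG00000011458), the last being the isoform of heart and skeletal muscle. CYB5A (ENSECAG00000017581), cytochrome b5, is a haem protein of the endoplasmic reticulum that donates electrons in lipid metabolism, and it is no subunit of a respiratory complex.

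The libraries held between 31395013 and 50508515 counts on genes, and the most abundant gene took between 24.1% and 39.1% of them. Levels are given as CPM, the counts scaled to a common library size with the trimmed mean of M-values (TMM), whose factors ran from 0.829 in infraspinatus to 1.41 in gluteus superficialis. CPM is not corrected for gene length, so levels were compared between muscles and not between genes. MYH1 and MYH7 were found in every library, MYH1 from 135 CPM in rhomboideus to 28111 CPM in extensor carpi radialis and MYH7 from 862 CPM in extensor carpi radialis to 26409 CPM in trapezius.

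The 10 genes were expressed in every muscle and rose and fell largely together, as the map of levels in the 18 muscles shows. The vertebral part of biceps femoris had the highest level of 8 genes, and supraspinatus had the highest level of the other 2, NDUFV1 and MT-ND4L. Extensor digitorum communis was lowest for 5 genes, extensor digitorum lateralis and omohyoideus for 2 each, and gluteus superficialis for MT-ND4L. For 7 genes these 2 extensors and omohyoideus were the 3 lowest muscles. The study chose the genes among those that differed between its subgroups B1, which includes the vertebral part, and B2, which is omohyoideus and extensor digitorum lateralis. The places of these muscles in the order are therefore in part set by that choice. When counts were divided by the library totals without TMM, the vertebral part stayed highest for 8 genes. The 2 extensors and omohyoideus were then the 3 lowest muscles for 3 genes only, and omohyoideus has a TMM factor of 1.39.

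**Figure D1:**
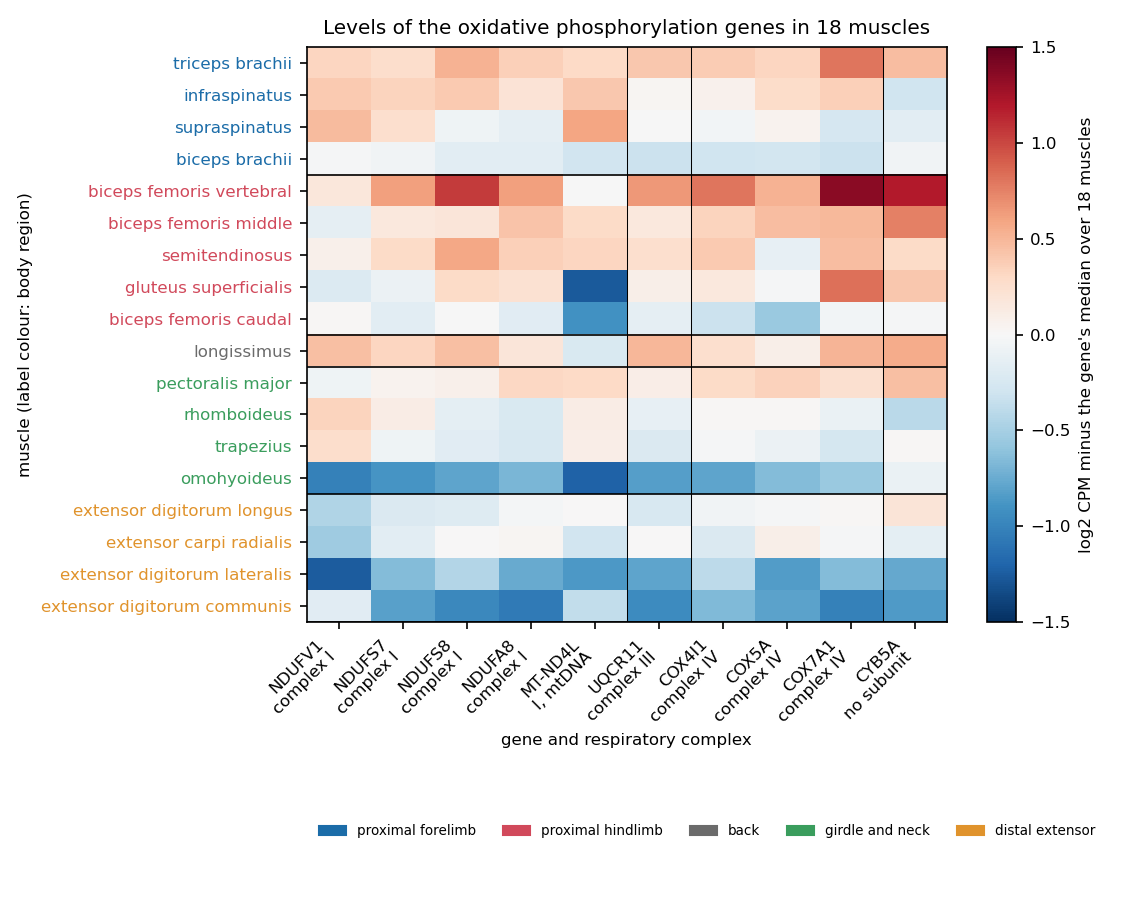
Level of each gene (columns, ordered by respiratory complex) in each of 18 muscles (rows, 1 library each, grouped by body region), as log2 CPM minus the median of the gene over the 18 muscles. The vertebral part of biceps femoris is above the median for almost every gene, omohyoideus and the extensores digitorum communis and lateralis are below it, and MT-ND4L in gluteus superficialis departs from the other genes of that muscle.

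The ratio of the highest to the lowest muscle lay between 2.57 for COX5A and 5.15 for COX7A1, beside a median of 2.46 over the 11201 genes that reached 10 counts in all 18 libraries. The coefficients of variation over the muscles lay between 25.7% for NDUFS7 and 43.2% for COX7A1, and the median over all tested genes was 28.5%. COX7A1, CYB5A (37.1%), NDUFS8 (34.1%) and MT-ND4L (33.9%) had the highest coefficients, and the other 6 members lay between 25.7% and 28.6%. Each muscle had 1 library, so the only error known for a single value is that of counting, given here as exact Poisson 95% intervals. Intervals of muscles next to each other in the order of levels overlapped in 16 of 17 cases for CYB5A, in 13 of 17 for NDUFA8 and NDUFS7, in 12 of 17 for NDUFV1, COX5A and UQCR11, in 10 of 17 for COX4I1 and NDUFS8, in 9 of 17 for MT-ND4L and in 8 of 17 for COX7A1. The order of neighbouring muscles is therefore not resolved for most genes, whereas the distance between the ends of the order is far above counting error.

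Among the nuclear subunits of complex I, NDUFS8 had the widest range. In the forelimb NDUFS8 stood at 156.8 CPM in triceps brachii, 98.1 in biceps brachii, 143.6 in infraspinatus and 104.8 in supraspinatus, and in the hindlimb at 164.1 in semitendinosus, 134.0 in gluteus superficialis, 226.3 in the vertebral, 124.2 in the middle and 109.2 in the caudal part of biceps femoris. In the distal extensors it stood at 56.1 in extensor digitorum communis, 109.6 in extensor carpi radialis, 95.4 in extensor digitorum longus and 80.5 in extensor digitorum lateralis. Longissimus held 149.4, rhomboideus 99.0, omohyoideus 63.3, trapezius 96.9 and pectoralis major 115.4. The vertebral part stood apart at the top, and every distal extensor other than extensor carpi radialis was below every proximal limb muscle.

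NDUFS7, the other iron-sulphur subunit, had a similar order of muscles (rho = 0.85 with NDUFS8 over 18 muscles) over a narrower range. It stood at 114.7, 91.9, 120.2 and 113.3 CPM in triceps brachii, biceps brachii, infraspinatus and supraspinatus, and at 116.4, 89.5, 146.0, 106.4 and 85.1 CPM in semitendinosus, gluteus superficialis and the vertebral, middle and caudal parts of biceps femoris. In extensores digitorum communis, carpi radialis, digitorum longus and digitorum lateralis it stood at 54.3, 85.5, 81.6 and 60.7 CPM. The distal extensors were low, with 1 value, that of extensor carpi radialis, just above the lowest of the proximal limb.

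NDUFA8 stood at 72.6, 50.7, 65.4 and 51.3 CPM in triceps brachii, biceps brachii, infraspinatus and supraspinatus, and at 72.4, 66.2, 86.4, 76.2 and 50.4 CPM in semitendinosus, gluteus superficialis and the vertebral, middle and caudal parts of biceps femoris. It stood at 27.1, 57.8, 55.3 and 33.5 CPM in extensores digitorum communis, carpi radialis, digitorum longus and digitorum lateralis, and at 64.3 CPM in longissimus. In the girdle and neck pectoralis major held 70.0 CPM, omohyoideus 35.0, rhomboideus 48.3 and trapezius 48.0. Extensor digitorum communis, extensor digitorum lateralis and omohyoideus formed a low group for this accessory subunit, and the next muscle was trapezius.

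NDUFV1 followed another order. The muscles with the most NDUFV1 were supraspinatus with 136.7 CPM, longissimus with 134.0, infraspinatus with 128.6, rhomboideus with 123.7, triceps brachii with 122.8 and trapezius with 117.9. The hindlimb samples lay below them, with 103.9 in semitendinosus, 85.3 in gluteus superficialis and 110.6, 89.7 and 99.5 in the vertebral, middle and caudal parts of biceps femoris. Extensor digitorum communis held 87.6, extensor digitorum longus 71.8, extensor carpi radialis 67.9, omohyoideus 48.8 and extensor digitorum lateralis 41.2. Rhomboideus and trapezius, which hold the most MYH7, were thus among the high muscles for the NADH-oxidising subunit, and extensor digitorum communis was close to gluteus superficialis although it was the lowest muscle for NDUFS8 and NDUFA8. On library totals gluteus superficialis moved from rank 14 to rank 5 for NDUFV1, and to rank 2 from rank 12 for NDUFS7, from 10 for COX5A, from 7 for COX4I1 and UQCR11, and from 6 for CYB5A, NDUFA8 and NDUFS8, so its place among the muscles depends on the scaling for each of these genes.

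MT-ND4L, the mitochondrially encoded subunit, departed from the nuclear members in other muscles. It stood at 317.4, 211.6, 340.6 and 388.7 CPM in triceps brachii, biceps brachii, infraspinatus and supraspinatus, and at 321.4, 107.3, 257.0, 314.4 and 137.6 CPM in semitendinosus, gluteus superficialis and the vertebral, middle and caudal parts of biceps femoris. It stood at 199.0, 210.4, 258.4 and 141.8 CPM in extensores digitorum communis, carpi radialis, digitorum longus and digitorum lateralis. Longissimus held 220.6, rhomboideus 277.6, omohyoideus 111.5, trapezius 276.4 and pectoralis major 317.6. Gluteus superficialis had the lowest MT-ND4L of the 18 muscles (rank 16 on library totals, where extensor digitorum lateralis was lowest), while COX7A1 in the same library was the second highest on both scales. In a RefSeq annotation of another assembly, that of a Thoroughbred horse, and not the Ensembl annotation used for counting, MT-ND4L overlaps the neighbouring mitochondrial gene ND4, so the reads counted for it may depend on how shared reads were treated, which the sources used here do not give. The same may hold for NDUFS7, which overlaps GAMT and short RNA genes there, and for COX7A1, which overlaps an unnamed gene.

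UQCR11, the member of complex III, ran from 41.3 CPM in extensor digitorum communis to 124.9 CPM in the vertebral part of biceps femoris, with a median of 79.6 CPM. It was also high in longissimus with 112.2 and triceps brachii with 105.2, and low in omohyoideus with 44.98 and extensor digitorum lateralis with 45.8. It ranked the muscles nearly as NDUFS8 did, with Pearson's r = 0.95 and Spearman's rho = 0.96 between the log2 CPM of the pair over 18 muscles.

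In complex IV, COX7A1 varied most. It stood at 245.7, 112.0, 180.3 and 117.6 CPM in triceps brachii, biceps brachii, infraspinatus and supraspinatus, and at 194.0, 248.9, 359.0, 196.7 and 136.1 CPM in semitendinosus, gluteus superficialis and the vertebral, middle and caudal parts of biceps femoris. It stood at 69.7, 138.5, 142.3 and 89.4 CPM in extensores digitorum communis, carpi radialis, digitorum longus and digitorum lateralis. Longissimus held 199.9 CPM, and the girdle and neck muscles ran from 95.6 in omohyoideus to 165.8 in pectoralis major. The vertebral part, gluteus superficialis and triceps brachii led this muscle isoform, and the distal extensors and girdle muscles held less than most hindlimb samples.

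COX4I1, one of the isoforms of a regulatory subunit of complex IV, ran from 109.8 CPM in omohyoideus to 331.9 CPM in the vertebral part, with a median of 190.8 CPM. COX5A ran from 46.3 CPM in extensor digitorum lateralis to 118.9 CPM in the vertebral part, with a median of 82.7 CPM. Relative to COX5A, COX7A1 was highest in gluteus superficialis and the vertebral part, where the log2 difference minus its median over muscles was 0.78 and 0.77, and lowest in supraspinatus, where it was -0.36. The proportion of the counts of these 2 genes therefore differed between these libraries, and no muscle had a replicate.

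CYB5A was the least counted of the 10 genes, from 3.4 CPM (95% interval 2.8 to 4.0) in extensor digitorum communis to 13.8 CPM (12.7 to 14.9) in the vertebral part of biceps femoris. The middle part held 10.2 CPM and longissimus 8.9, and extensor digitorum lateralis held 3.5 and rhomboideus 4.6. Its high muscles were those of the complex subunits, and its low muscles also included rhomboideus and infraspinatus (4.9 CPM). In infraspinatus the complex subunits were above their medians. In rhomboideus NDUFV1, NDUFS7, MT-ND4L, COX4I1 and COX5A were above their medians, and NDUFA8, NDUFS8, UQCR11 and COX7A1 were below.

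**Figure D2:**
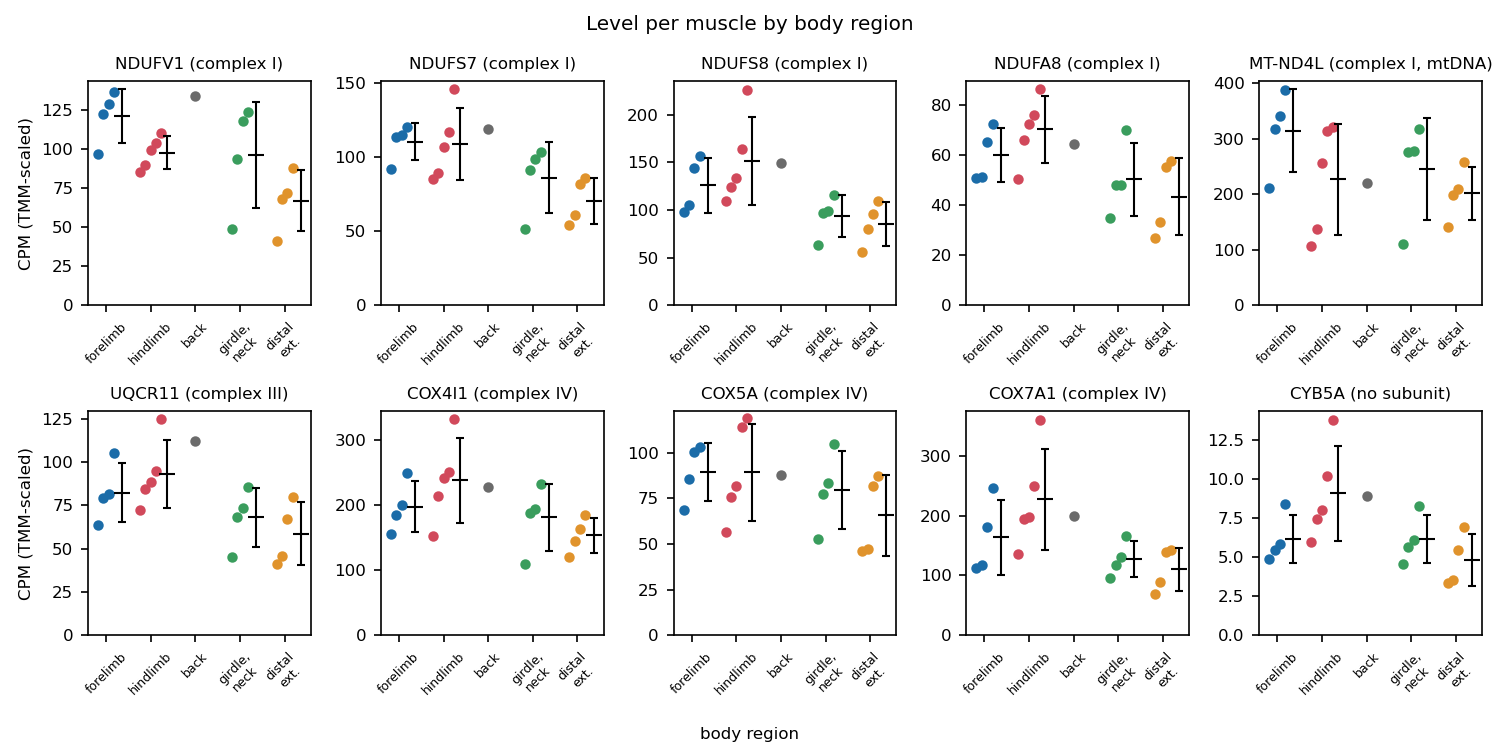
TMM-scaled CPM of each gene by body region, 1 point per muscle and 1 library per point. The black bars give the mean ± SD of a region with 4 or 5 muscles. In all 10 panels the distal extensors have the lowest mean, and their range overlaps that of the 9 proximal limb samples as 1 set. For NDUFV1 and NDUFS7 all 4 nevertheless lie below the forelimb muscles.

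The 45 pairs of members had a median Pearson's r of 0.80 between their log2 CPM over the 18 muscles, with a range of 0.23 to 0.95. The 8 nuclear complex subunits had a median r of 0.89 among themselves, and the median over all pairs of tested genes was 0.0016. These r values describe sites of 1 animal, which share the horse and the scaling of each library. The study also chose the members among genes that differed between its subgroups B1 and B2, which are part of the 18 muscles. A high r among the members was therefore in part set by that choice, and the median over all tested genes is no like comparison. The r values outside B1 and B2 were not computed. The closest pair was NDUFS8 with UQCR11, and NDUFS8 with COX7A1 and NDUFA8 with UQCR11 followed at r = 0.94. The loosest pair was CYB5A with MT-ND4L at 0.23, and COX7A1 with MT-ND4L stood at 0.26. NDUFV1 was closest to NDUFS7 at 0.78 and stood at 0.51 with NDUFA8 and 0.44 with COX7A1, so subunits of the same complex I did not share 1 order of muscles. Of the 14770 genes tested, 13 that are no members had an r above 0.9 with the mean of the 10 standardised members over 18 muscles. The most alike were ENSECAG00000020538 with r = 0.99 and ENSECAG00000022394 with r = 0.98, which the files do not pair with a name.

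The departure of NDUFV1 was followed as the log2 difference between NDUFV1 and the mean of NDUFA8, NDUFS7 and NDUFS8 in each muscle, taken relative to the median of that difference over muscles. It stood at 0.91 in extensor digitorum communis, 0.59 in supraspinatus, 0.56 in trapezius and 0.55 in rhomboideus. It stood at -0.50 in extensor digitorum lateralis, -0.45 in the vertebral part of biceps femoris and -0.36 in extensor carpi radialis. The 4 distal extensors thus held both the highest and the lowest value, and 4 of the 5 hindlimb samples were below the median while all 4 forelimb muscles were above it.

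For MT-ND4L the log2 difference from the mean of the 8 nuclear subunits, again relative to its median over muscles, was -1.40 in gluteus superficialis, -0.71 in the caudal and -0.70 in the vertebral part of biceps femoris. It was 0.59 in supraspinatus and 0.46 in extensor digitorum communis. The hindlimb thus held the 3 lowest values, while the middle part of biceps femoris and semitendinosus lay near the median at 0.05 and 0.06. Gluteus superficialis and omohyoideus, with the highest TMM factors, were the 2 muscles with the least MT-ND4L after TMM, and on library totals omohyoideus was not among the 3 lowest. Over 18 muscles MT-ND4L and the TMM factor had r = -0.61 (rho = -0.49), and r was -0.14 without these 2 libraries. The part of the library composition in the MT-ND4L levels was not tested.

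**Figure D3:**
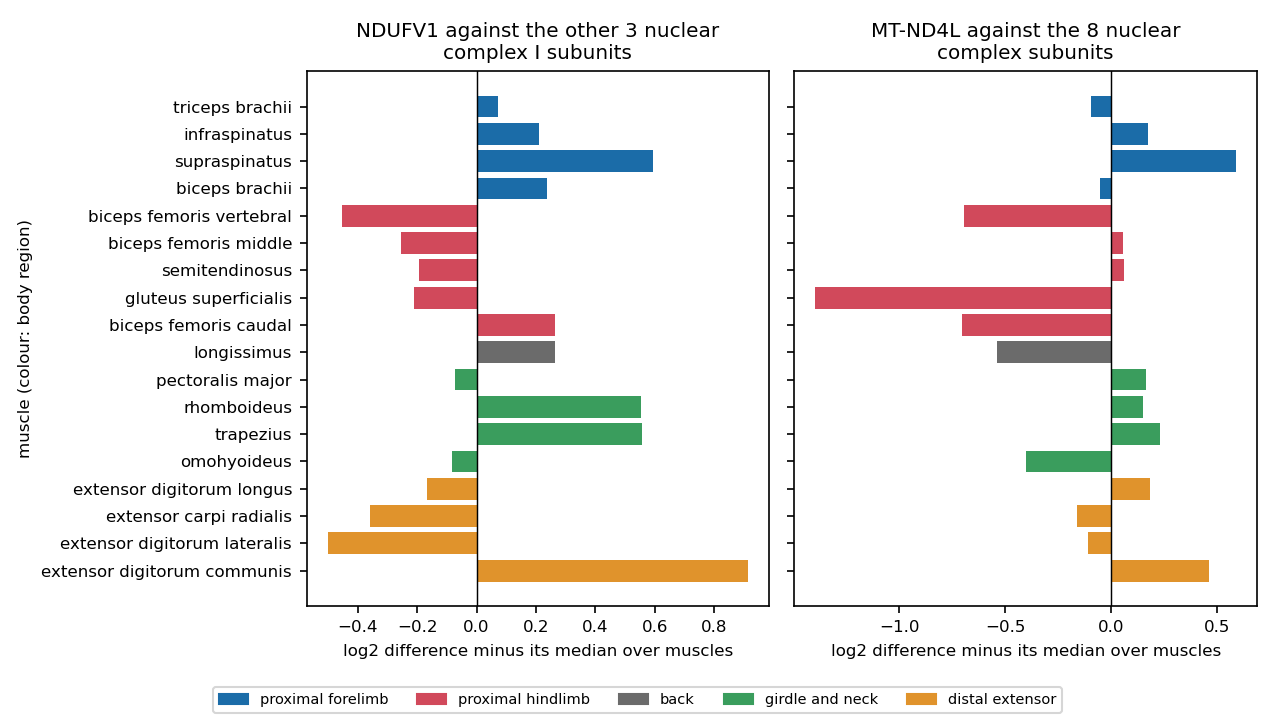
Per muscle, the log2 difference between NDUFV1 and the mean of the other 3 nuclear complex I subunits (left) and between MT-ND4L and the mean of the 8 nuclear complex subunits (right), each minus its median over the 18 muscles. NDUFV1 is relatively high in extensor digitorum communis, supraspinatus, trapezius and rhomboideus, and MT-ND4L is relatively low in gluteus superficialis.

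Biceps femoris was sampled at 3 sites, which shows how much the genes varied inside a single muscle. All 10 genes were higher in the vertebral than in the caudal part, by 1.11 times for NDUFV1 to 2.64 times for COX7A1, with a median of 1.97 times. The 95% counting interval of the ratio was 2.55 to 2.72 for COX7A1, 2.11 to 2.24 around 2.18 for COX4I1 and 1.06 to 1.16 for NDUFV1. The middle part lay above the caudal part for 9 genes, by up to 2.28 times for MT-ND4L, and below it for NDUFV1 at 0.90 times. MYH1 was nearly equal in the vertebral and caudal parts, at 1.04 times, while MYH7 in the vertebral part was 0.258 times its level in the caudal part. There was 1 library per site, so the differences between sites have no replicate check. The vertebral and middle parts are in B1, and the caudal part is in neither B1 nor B2. The study chose the members among genes that differed between B1 and B2. Higher values than in the caudal part are therefore in part set by that choice. The share of all tested genes that were higher in these parts was not computed.

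The comparison of body regions asked whether muscles of the distal limb differ from those of the proximal limb. All p-values compare muscles of 1 horse and measure only the spread between these samples. The 4 distal extensors were set against the mean of the 4 proximal forelimb and 5 proximal hindlimb samples, with edgeR's quasi-likelihood test over 14770 genes and Benjamini-Hochberg adjustment. NDUFV1 averaged 67.1 ± 19.3 CPM (SD, n = 4) in the distal extensors, 121.3 ± 17.2 (n = 4) in the forelimb and 97.8 ± 10.3 (n = 5) in the hindlimb, and its log2 fold change was -0.71 (SE 0.23, edgeR adjusted p = 0.0408). NDUFS7 averaged 70.5 ± 15.3, 110.0 ± 12.4 and 108.7 ± 24.4 CPM in the same groups, with a log2 fold change of -0.64 (SE 0.21, edgeR adjusted p = 0.0446). These 2 of the 10 genes passed the threshold, beside 6.41% of all tested genes called lower in the distal extensors. The other 8 members had log2 fold changes from -0.81 for COX7A1 (edgeR adjusted p = 0.0610) to -0.41 for MT-ND4L (edgeR adjusted p = 0.390), and none of the 8 passed. With the 3 biceps femoris parts summed to 1 sample NDUFV1 (edgeR adjusted p = 0.0651) and NDUFS7 (edgeR adjusted p = 0.0550) did not pass and NDUFS8 did, beside 6% of tested genes called lower. DESeq2 called COX7A1, NDUFS8 and UQCR11 besides NDUFV1 and NDUFS7, beside 8.53% of tested genes called lower.

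All 10 log2 fold changes were below 0, with a median of -0.61 beside -0.02 over all genes tested. In no gene were the distal extensors entirely below the proximal limb muscles, beside 2.53% of tested genes for which they were. The study chose the members among genes that differed between 2 of its subgroups of muscles, named B1 (semitendinosus, gluteus superficialis, the vertebral and middle parts of biceps femoris and pectoralis major) and B2 (omohyoideus and extensor digitorum lateralis), so 4 of the 9 proximal and 1 of the 4 distal samples had part in that choice. In the 11 muscles outside B1 and B2 the median was -0.28, 8 of 10 genes were below 0 and none was called, beside 1.04% of tested genes called lower there. NDUFV1 had a log2 fold change of -0.55 (SE 0.18, edgeR adjusted p = 0.124) and NDUFS7 of -0.40 (SE 0.20, edgeR adjusted p = 0.290) in those muscles. No member passed either when triceps brachii, infraspinatus, supraspinatus, semitendinosus or extensor digitorum lateralis was left out. All 10 log2 fold changes stayed below 0 in those fits, with medians of -0.53, -0.59, -0.62, -0.60 and -0.49. Of all tested genes, 5.66%, 5.47%, 4.93%, 5.27% and 2.46% were called lower there, in the same order. The count of all genes called in either direction fell from 2326 (15.7% of those tested) to 929 without extensor digitorum lateralis. Over the 18 fits that each left out 1 muscle, NDUFV1 was called in 10 and NDUFS7 in 8. Both calls were also lost without extensor digitorum longus, that of NDUFV1 without extensor carpi radialis or the caudal part of biceps femoris, and that of NDUFS7 without trapezius, extensor digitorum communis, pectoralis major or the middle part of biceps femoris.

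Hindlimb and forelimb were compared in the same way. All hindlimb samples except the caudal part of biceps femoris are in B1, and no forelimb muscle is in B1 or B2. The study chose the members among genes that differed between B1 and B2. Higher values in the hindlimb are therefore in part set by that choice. COX7A1 averaged 226.9 ± 83.9 CPM (SD, n = 5) in the hindlimb and 163.9 ± 62.7 (n = 4) in the forelimb, CYB5A 9.1 ± 3.0 and 6.1 ± 1.5, and MT-ND4L 227.5 ± 99.7 and 314.6 ± 74.8 CPM. The log2 differences were 0.47 (SE 0.31), 0.57 (SE 0.27) and -0.46 (SE 0.34). They rested in part on single muscles, since COX7A1 stood at 0.23 and CYB5A at 0.35 without the vertebral part of biceps femoris, COX7A1 at 0.74 without triceps brachii and MT-ND4L at -0.28 without gluteus superficialis. No gene of the whole table passed the threshold in edgeR (0% of tested genes), which gave 1916 genes at an unadjusted p below 0.05 and CYB5A among them, and DESeq2 called 46 genes and no member. The girdle and neck muscles against the same proximal limb muscles gave log2 fold changes from -0.62 for COX7A1 to -0.14 for MT-ND4L, with a median of -0.33 beside -0.02 over all genes, and without omohyoideus the median was -0.19 and 2 members, MT-ND4L and NDUFV1, stood above 0. No member passed in edgeR, beside 0.0339% of tested genes called higher in the girdle and neck and 0% called lower. NDUFS8 and COX7A1 had an unadjusted edgeR p below 0.05, as had 1634 of the 14770 genes tested. DESeq2 called 107 genes and no member. This comparison shares its proximal limb samples with that of the distal extensors. Its girdle and neck set holds omohyoideus of B2 and pectoralis major of B1, and its proximal limb set holds the hindlimb samples of B1. Values of the members below 0 are therefore in part set by the study's choice of the genes. Neither the hindlimb nor the girdle and neck comparison was rerun outside B1 and B2.

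The members were then set against the myosin heavy chains that mark fibre types. In these bulk samples fewer fibres of a type and less RNA per fibre cannot be told apart, and reads of myosin heavy chain genes, which are near copies of each other, may have been split in counting. MYH1 fell into 2 separate clusters of muscles. It stood between 135 and 483 CPM in rhomboideus, trapezius, omohyoideus and extensores digitorum communis and lateralis, and between 2308 and 28111 CPM in the other 13 samples.

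Over all 18 muscles the 10 members had slopes above 0 on log2 CPM of MYH1, with a median of 0.10 log2 units per log2 unit of MYH1 beside -0.0027 over 11680 genes tested. The slope was 0.12 for NDUFA8 (SE 0.03, edgeR adjusted p = 0.0265), 0.13 for NDUFS8 (SE 0.04, edgeR adjusted p = 0.0405) and 0.11 for UQCR11 (SE 0.03, edgeR adjusted p = 0.0362). These 3 members passed, beside 1.88% of all tested genes called with a slope above 0. MYH1 also separates B1 from B2, between which the study chose the members. Slopes above 0 over all 18 muscles are therefore in part set by that choice and are no independent evidence. The slope of COX7A1 was 0.14 (SE 0.05, edgeR adjusted p = 0.0890), and the smallest were those of MT-ND4L at 0.06 and NDUFV1 at 0.04 (SE 0.04, edgeR adjusted p = 0.615).

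Within the 13 muscles with MYH1 above 1000 CPM the mean of the members had r = 0.26 (rho = 0.20) with MYH1, and r = 0.04 without the 2 muscles farthest from the median of MYH1. NDUFA8 had a slope of 0.04 (SE 0.08), NDUFS8 of 0.10 (SE 0.10) and UQCR11 of 0.12 (SE 0.08) there, and no member was called, beside 0.0089% of tested genes. The slopes of 9 members were above 0 there, with a median of 0.07, and their standard errors were larger than over all 18 muscles, so that a slope of the size seen over 18 muscles could not be told from 0. Extensor carpi radialis, with the most MYH1, held 57.8 CPM of NDUFA8, close to the median of 56.6 CPM. The 5 muscles of the low cluster were not alike, since omohyoideus and extensores digitorum communis and lateralis held 27.1 to 35.0 CPM of NDUFA8 and rhomboideus and trapezius 48.3 and 48.0. In the 11 muscles outside B1 and B2 no member was called on MYH1, beside 1.12% of tested genes, and the median slope was 0.06. No member was called either without omohyoideus, without extensor digitorum communis or with both myosins in the model, with all 10 slopes above 0 and medians of 0.09, 0.09 and 0.12. These fits called 1.74%, 0.981% and 1.18% of tested genes with a slope above 0, in the same order. Without longissimus, semitendinosus, the vertebral part of biceps femoris or extensor digitorum lateralis, and with no filter on low counts, NDUFA8 alone was called, and without triceps brachii NDUFA8 and UQCR11 were. Of all genes tested in those fits, 1.43%, 1.55%, 1.66% and 1.52% were called with a slope above 0 without longissimus, semitendinosus, the vertebral part and extensor digitorum lateralis, 0.805% with no filter, and 1.67% without triceps brachii. DESeq2 called COX7A1 besides the 3, beside 3.48% of tested genes called with a slope above 0.

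**Figure D4:**
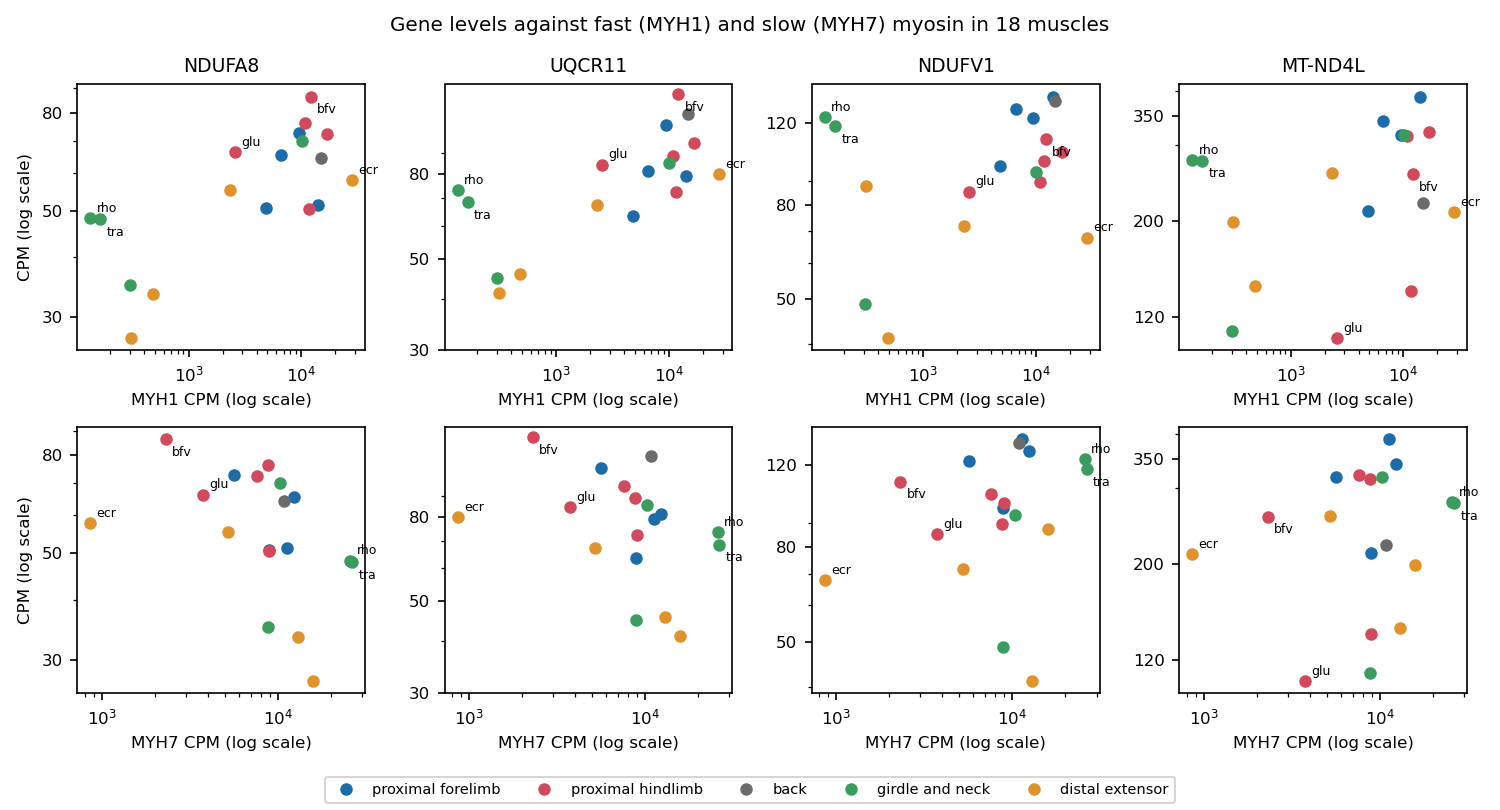
NDUFA8, UQCR11, NDUFV1 and MT-ND4L against MYH1 (top) and MYH7 (bottom), CPM on log scales, 1 point per muscle; rho, rhomboideus; tra, trapezius; ecr, extensor carpi radialis; bfv, biceps femoris vertebral; glu, gluteus superficialis. The 5 muscles with MYH1 below 483 CPM stand apart from the other 13 in MYH1, and the points of the 13 scatter widely.

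On MYH7 no member passed in edgeR over 18 muscles, beside 1.1% of tested genes called with a slope below 0 and 2.51% above. COX7A1 (slope -0.28, SE 0.11) and CYB5A (slope -0.21, SE 0.09) had an unadjusted edgeR p below 0.05, as had 2429 of the 11680 genes tested. DESeq2 called no member either, beside 2.59% of tested genes called with a slope below 0 and 4.35% above. The slopes of 8 members were below 0, and those of NDUFV1 at 0.11 (SE 0.09) and MT-ND4L at 0.08 (SE 0.10) were above, with a median of -0.12. The mean of the members had r = -0.28 (rho = -0.30) with MYH7, and r = -0.24 without the 2 muscles farthest from its median. Rhomboideus and trapezius held 25834 and 26409 CPM of MYH7, yet their levels of COX4I1 (193.9 and 187.7 CPM), COX5A (83.4 and 77.7) and NDUFS8 (99.0 and 96.9) were near the medians of 190.8, 82.7 and 109.4 CPM. Extensor digitorum communis, the next in MYH7 with 15807 CPM, was among the 3 lowest muscles for 8 of the members. Without extensor carpi radialis the median was -0.23 and COX7A1 and CYB5A passed the threshold, beside 4.78% of tested genes called with a slope below 0, and without the vertebral part of biceps femoris the median was -0.07. With both myosins in the model 6 members had slopes on MYH7 above 0. In the 11 muscles outside B1 and B2 the median slope was -0.05, with 6 members below 0 and 4 above. None was called there, beside 1.01% of tested genes called with a slope below 0 and 2.22% above. NDUFV1 had a slope of 0.18 (SE 0.07, edgeR adjusted p = 0.170) in those muscles.

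**Figure D5:**
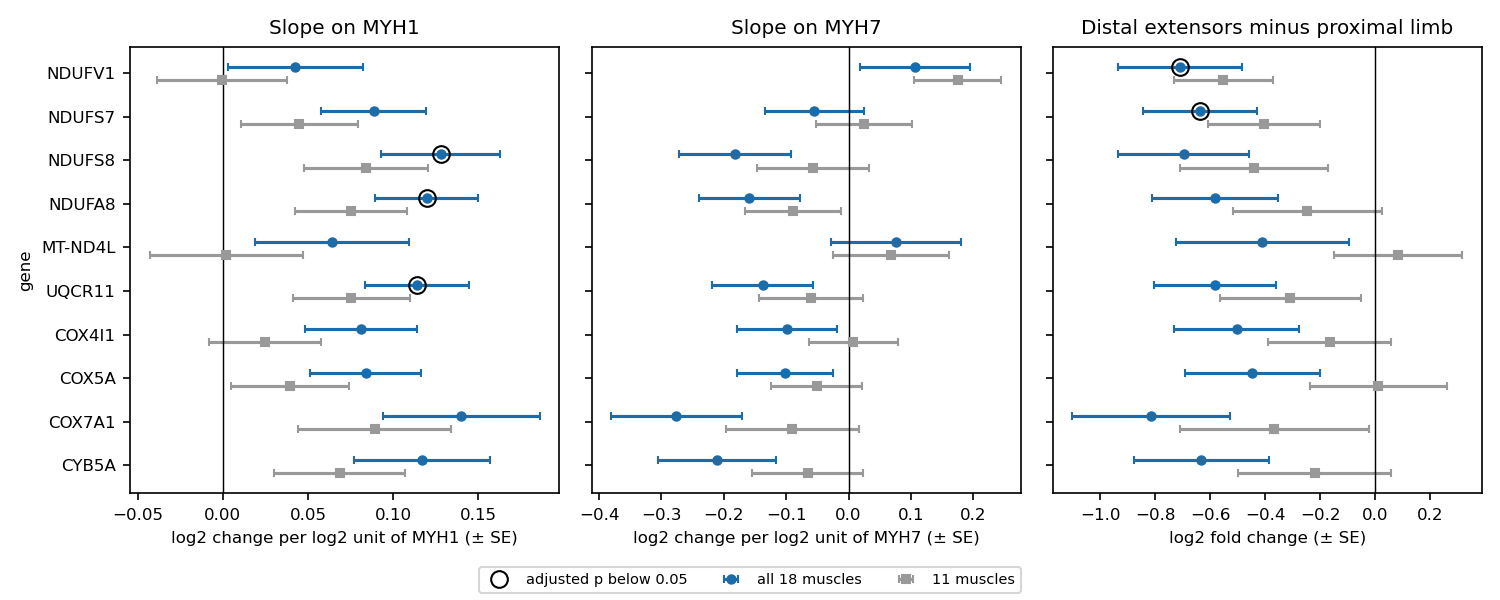
Fitted value ± SE of each gene for the slope on MYH1, the slope on MYH7 and the distal extensors against the proximal limb, in all 18 muscles (circles) and in the 11 muscles outside the subgroups that chose the genes (squares); open rings mark an edgeR adjusted p below 0.05. In the 11 muscles the slopes on MYH1 and the regional differences lie nearer 0 than in all 18, with the 8 nuclear subunits and CYB5A still mostly on the same side. On MYH7 most slopes also lie nearer 0 there, and that of NDUFV1 lies farther from it.

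The 10 glycolysis genes shown in the same figure of the study served as the list for comparison. Their identifiers were matched on the printed counts of fewer muscles, 11 for ALDOC, 9 for PFKL and 4 for each of the others. The study had picked these genes too among those that differed between subgroups it formed from the same counts, and the 5 muscles with low MYH1 are its subgroups A2 and B2, so the slopes of this list on the myosins are a description and not independent evidence. The mean of the oxidative phosphorylation genes had r = 0.72 (rho = 0.63) with the mean of the glycolysis genes over 18 muscles. On MYH1 the slopes of 8 glycolysis genes lay between 0.18 for TPI1 and 0.34 for PGAM2, and those of PFKL (-0.21) and ALDOC (-0.36) were below 0. Within the 13 muscles with high MYH1 the glycolysis mean had r = 0.61 with MYH1 where the oxidative phosphorylation mean had 0.26. On MYH7 the slopes of the same 8 glycolysis genes lay between -0.29 for TPI1 and -0.63 for PGAM2, and those of PFKL (0.41) and ALDOC (0.78) were above 0, while those of the 10 members lay between -0.28 and 0.11. The difference between the lists was not tested.

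In the subgroups from which the study chose these genes, values were taken as a description only. NDUFV1 stood between 85.3 and 110.6 CPM in the 5 muscles of B1 and at 41.2 and 48.8 CPM in the 2 of B2, and NDUFA8 between 66.2 and 86.4 against 33.5 and 35.0 CPM. COX7A1 stood between 165.8 and 359.0 against 89.4 and 95.6 CPM, and UQCR11 between 84.5 and 124.9 against 44.98 and 45.8 CPM. In 9 members B1 lay above B2 without overlap, beside 8.35% of tested genes. The exception was MT-ND4L, which at 107.3 CPM in gluteus superficialis lay below the 111.5 and 141.8 CPM of B2 and between 257.0 and 321.4 CPM in the other 4 muscles of B1. MYH1 also separated these subgroups, with 2560 to 16851 CPM in B1 against 302 and 483 CPM in B2.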

How the data were processed

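RNA from 18 muscles of 1 horse was sequenced with paired reads of 101 bp after removal of ribosomal RNA. The authors trimmed reads with NGSQCToolkit, aligned them with STAR 2.5.2b to EquCab2 in 2 passes and deposited raw counts per Ensembl gene for 25239 genes, with no normalization; the study took the read counts from the alignment step, and the strand setting is not given in the sources used here. Totals lay between 31395013 and 50508515 counts per library, and intervals cover counting error only.

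Muscles were placed in 5 body regions by their labelled names and textbook anatomy. The sample labelled pectoralis major has the name pectoralis ascendens in the study, and the label was used here. Tests were run in edgeR 4.0.16 under R 4.3.3 (filterByExpr, TMM, glmQLFit, glmQLFTest, Benjamini-Hochberg adjustment over all genes tested, threshold 0.05), over regions or with log2 CPM (prior count 0.5) of MYH1 or MYH7 as the covariate. SE is the log2 value divided by the square root of F. The tests were first run on simulated data. Alternatives were DESeq2 1.42.0, its size factors in edgeR, other filters, a robust fit, the biceps femoris parts summed, only the groups compared, both myosins, library sizes without the myosins and leaving out each muscle; those on the 11 muscles outside B1 and B2 and on the 13 with high MYH1 were chosen after seeing the data.

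The genes, lists and comparisons were chosen with earlier results of these data known. The named genes were the 10 members, MYH1, MYH7, the glycolysis genes as a list and the non-members most like the members' mean. The table has no gene names, so other subunits, regulators of mitochondrial biogenesis and markers of other cells could not be looked up. Genomic sequences and coordinates of EquCab2 were not used here.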

Additional observations from a re-analysis of the deposited data

Results flagged for a closer look

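Of 48 sets of 4 or 5 muscles of a region (the 10 genes, MYH1 and MYH7), 2 held a value that stood far from the others by Dixon's criterion, which chance meets in about 1 of 20 sets. Both concern MYH1 and neither concerns one of the 10 oxidative phosphorylation genes. Extensor carpi radialis held 28111 CPM of MYH1, against 311 to 2308 CPM in the other 3 distal extensors. Pectoralis major held 10077 CPM of MYH1, against 135 to 302 CPM in the other 3 muscles of the girdle and neck.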

How the results depend on the processing

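Leaving out each muscle in turn kept the direction and the side of the threshold for 842 of 900 values of single members, and the other alternatives for 374 of 410. Most of those values belong to effects that were not called. Of the 5 called, those of NDUFS7 and NDUFV1 in distal extensors stayed called in 8 and 10 of the 18 fits without 1 muscle, and the slopes of NDUFS8, UQCR11 and NDUFA8 on MYH1 in 11, 12 and 16. For distal extensors against the proximal limb, the count of genes called was 303 in the 11 muscles outside B1 and B2, where COX5A stood at 0.0123 and MT-ND4L at 0.0833, and between 929 and 2446 without 1 muscle. DESeq2 called 5 members there (COX7A1, NDUFS7, NDUFS8, NDUFV1 and UQCR11), and NDUFS8 alone was called with the biceps femoris parts summed. For hindlimb against forelimb, 46 genes were called by DESeq2 and 10 when only the groups compared were fitted, and COX5A stood at -0.000531 with DESeq2's size factors, -0.000544 in DESeq2, -0.0800 with the parts summed and -0.00429 with only the groups compared. Without 1 muscle COX5A lay between -0.14 and 0.13 and NDUFS7 between -0.16 and 0.0647. For girdle and neck, 107 genes were called by DESeq2, 12 without a filter, 0 with at least 10 counts in every library and 0 with the parts summed, and 0 to 35 without 1 muscle, where MT-ND4L lay between -0.29 and 0.11 and NDUFV1 between -0.34 and 0.0334. For the slope on MYH1, 822 genes were called by DESeq2, 259 with both myosins, 232 in the 11 muscles, 1 in the 13 muscles with high MYH1 and 273 to 509 without 1 muscle; NDUFV1 stood at -0.000671 in the 11 and COX7A1 at -0.00519 in the 13 muscles. For the slope on MYH7, 810 genes were called by DESeq2, 169 with the parts summed, 112 with both myosins and 114 to 1112 without 1 muscle. With both myosins COX4I1 stood at 0.0176, COX5A at 0.0121, NDUFS7 at 0.0985 and UQCR11 at 0.0190, and in the 11 muscles COX4I1 at 0.0076 and NDUFS7 at 0.0251; NDUFS7 lay between -0.14 and 0.0082 without 1 muscle. The smaller counts in the 11 and 13 muscles come with fewer samples; the cause of the other changes was not tested. The ratio of highest to lowest muscle moved beyond its counting interval for all 10 genes without TMM, for CYB5A to 5.48 and for COX5A to 3.63. No paired analysis was possible because all samples came from 1 horse, with 1 library per sample.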
